A study of Marmota monax with 203 samples.

Results

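Liver RNA was examined here for the 3 ligands of the chemokine receptor CXCR3, which are CXCL9, CXCL10 and CXCL11, for CXCR3 itself, and for CCL5, CXCL16 and CXCR6. These are 7 of the 17587 genes listed in any sequencing run, taken by their symbols, and all 7 passed the filter on low counts at every week. The livers came from woodchucks (Marmota monax) infected with woodchuck hepatitis virus (WHV) as newborns and studied as adult chronic carriers, so that placebo and treated animals shared the chronic infection. Treated animals were injected under the skin 3 times a week with woodchuck interferon-alpha (wIFN-α), at 20 μg when biopsied at weeks 0 and 3 and at 100 μg when biopsied at weeks 7, 11 and 15. By the paper's account, biopsies on treatment were taken 6 hours after a dose. Those of weeks 0 and 7 followed the first 20 μg and the first 100 μg dose. Placebo animals received vehicle, and biopsies at weeks 19 and 23 followed the end of dosing. The sample labels number the first week of treatment as 1, and 1 was therefore subtracted from all label weeks after treatment began. At weeks -3, 0, 3, 7, 11, 15, 19 and 23 the wIFN-α group held 11, 11, 9, 9, 8, 8, 6 and 6 animals and the placebo group 12, 12, 12, 12, 10, 9, 5 and 9. Animals are named by sex and number, as in F1020 for a female.

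Chemokines are secreted proteins that attract leukocytes along a gradient. CXCL9, CXCL10 and CXCL11 all bind CXCR3, which activated T cells and natural killer (NK) cells carry; interferon-γ is the main inducer of CXCL9, whereas type I interferon strongly induces CXCL10 and CXCL11 as well. CCL5 is a chemokine that T cells and NK cells also make, and CXCL16 is a membrane-bound ligand of CXCR6, a receptor found on memory and liver-resident T cells and natural killer T cells.

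Biopsies held between 12072840 and 84805845 reads on genes, with a median of 28754894. The median biopsy had 1696 reads of CXCL10, 1439 of CXCL9 and 389 of CCL5, but 46 of CXCR6, 43 of CXCL16, 41 of CXCL11 and 27 of CXCR3. Levels are counts per 1000000 reads (CPM). Placebo animal M1008 at week 15 had 2 runs that differed, with CXCL11 at 6.37 and 3.94 unscaled CPM, and these were summed. Skeletal muscle genes took more than 1% of the reads in 22 biopsies. At week -3 the biopsies of F1018 (wIFN-α) and F1016 (placebo) held 197 and 368 CPM of 8 summed hepatocyte genes, against a median of 131492 CPM in the wIFN-α group, and so went against their liver label. Both enter the week -3 comparison and no other week's, as well as the fit of all weeks together and the correlations over all biopsies, and no member was called at that week with or without the biopsies rich in muscle RNA. The CPM given are TMM-scaled, and effects are log2 fold changes of wIFN-α against placebo animals of the same week, with standard errors (SE). For effects at single weeks, called genes had both a fold change above 1.5 and an adjusted p under 0.05 by edgeR's quasi-likelihood test. Differences between weeks or between sexes were called at an adjusted p under 0.05 alone.

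CXCL10 responded most strongly of the 7 genes and did so at the first dose. At week 0 placebo livers held 5.51 to 128 CPM (median 39.6) and wIFN-α livers 511 to 3673 CPM (median 1662). The groups did not overlap, and the difference was 36.5-fold (log2 fold change 5.19, SE 0.46, adjusted p = 2.57e-09). At week 3 the wIFN-α range began at 26.3 CPM because of F1013, whose level lay inside the placebo range of 9.34 to 131 CPM, while the other 8 treated animals were above every placebo animal and the median was 2183 CPM. The effect at week 3 was 37.1-fold (adjusted p = 5.6e-07).

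At 100 μg every wIFN-α liver again exceeded every placebo liver in CXCL10. Week 7 values ran from 1694 to 5542 CPM (median 4219) against 16.95 to 119 CPM (median 40.3) in placebo livers, a 72.3-fold difference (log2 fold change 6.18, SE 0.40, adjusted p = 1.63e-11). The effect was 71.9-fold at week 11 (adjusted p = 3.57e-10) and 65.1-fold at week 15 (adjusted p = 1.03e-09). At week 15 wIFN-α livers held 2223 to 5012 CPM (median 3138) and placebo livers 16.2 to 99.2 CPM (median 49.8), so the treated median was below that of week 7 and the groups remained apart.

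**Figure D1:**
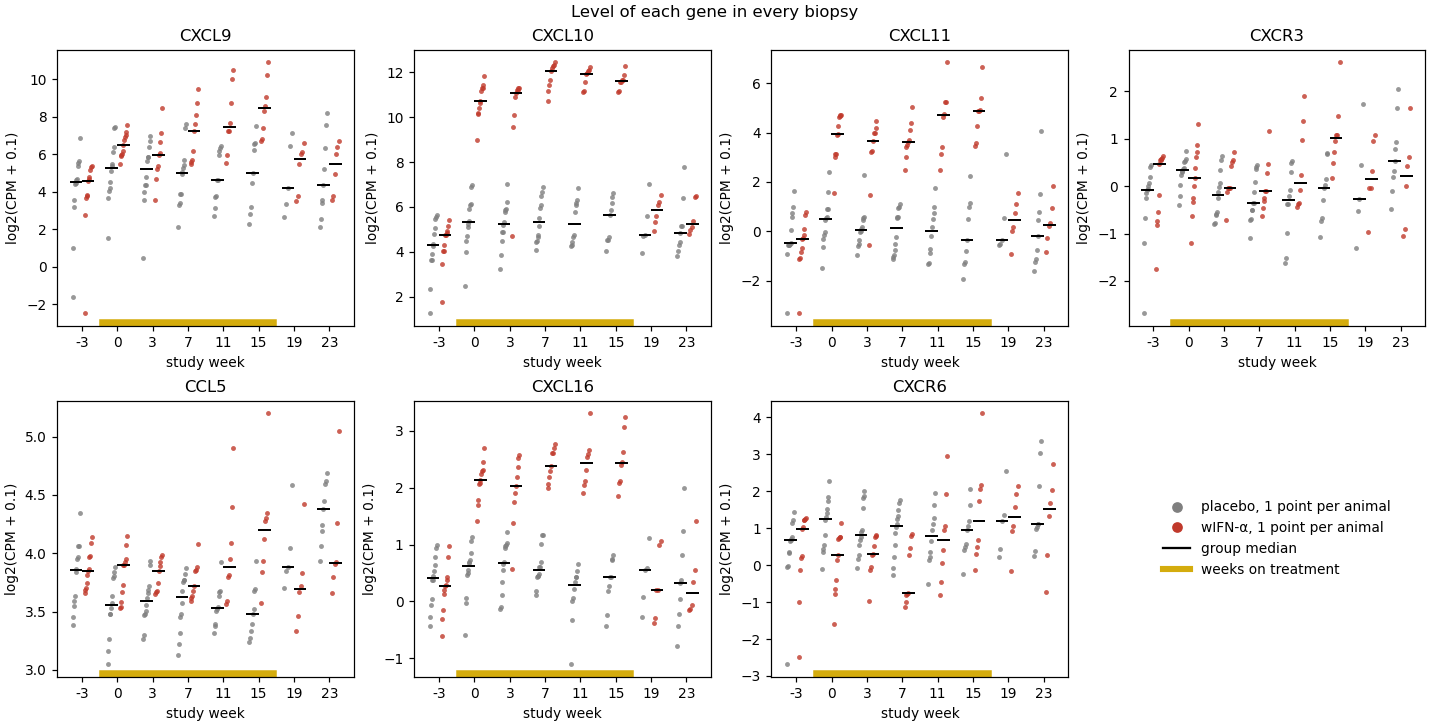
Level of each of the 7 genes, as log2(CPM + 0.1), against study week for placebo and wIFN-α animals. Each point is 1 animal, and a short bar marks the group median at each week. CXCL10 separates the groups from week 0, with 1 treated animal at 26.3 CPM at week 3, whereas the CXCL9 groups overlap at each week, with the treated medians farthest above the placebo medians at weeks 7, 11 and 15.

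CXCL11, which binds CXCR3 with high affinity, also rose at the first dose, and its effect was larger at weeks 11 and 15 than at weeks 0 to 7. Week 0 placebo livers held 0.260 to 5.14 CPM (median 1.31), against 2.84 to 26.3 CPM (median 15.5) with wIFN-α. All but 1 of the 11 treated animals lay above the placebo range, and the effect was 10.1-fold (log2 fold change 3.34, SE 0.42, adjusted p = 1.02e-06). The effect was 9.27-fold at week 3 and 13.8-fold at week 7, where the groups no longer overlapped. It then reached 28.4-fold at week 11 (log2 fold change 4.83, SE 0.61) and 26.1-fold at week 15 (4.70, SE 0.64, adjusted p = 1.19e-05). Single animals moved these values, the week 11 effect being 4.22 without F1020 and the week 15 effect 5.37 without placebo animal M1008 and 4.23 without F1020, and each was still called. At week 15 placebo livers held 0.159 to 4.64 CPM (median 0.692) and wIFN-α livers 10.8 to 103 CPM (median 29.3), F1020 being the highest.

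CXCL9 behaved otherwise and, with both sexes together, was not called at weeks 0 and 3. At week 0 placebo livers held 2.77 to 176 CPM (median 38.3) and wIFN-α livers 45.1 to 190 CPM (median 90.9). The ranges overlapped almost wholly, with 1 treated animal above all placebo animals, and the effect of 0.77 (SE 0.47) on the log2 scale missed the threshold (adjusted p = 0.224). Week 3 gave 0.94 (SE 0.61, adjusted p = 0.285).

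At week 7 the CXCL9 effect was 4.21-fold (log2 fold change 2.07, SE 0.67, adjusted p = 0.0144), with placebo livers at 4.24 to 199 CPM (median 32.3) and wIFN-α livers at 45.0 to 713 CPM (median 153). Only 3 of 9 treated animals exceeded all placebo animals, and without M1002 the call was lost (log2 fold change 1.59, adjusted p = 0.0523). At week 11 the effect was 10.99-fold (3.46, SE 0.73, adjusted p = 0.00115) and 6 of 8 treated animals lay above the placebo range. At week 15 placebo livers held 4.71 to 184 CPM (median 32.1) and wIFN-α livers 104 to 1913 CPM (median 351), a 10.3-fold difference (3.37, SE 0.78, adjusted p = 0.00225) with 5 of 8 treated animals above every placebo animal. The 2 highest were F1020 at 1913 CPM and M1002 at 1222 CPM, followed by M1003 at 529 CPM. Without F1020 the week 15 effect was 2.82 on the log2 scale and was still called.

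The mixture of CXCR3 ligands can be compared between genes on a per-length scale (reads per kilobase), as shares of the summed level of the 3 ligands. In placebo livers CXCL10 made up a median of 69.0% to 80.1% over the weeks and CXCL9 18.6% to 28.9%. At the first dose of wIFN-α the median CXCL10 share was 97.6% and the CXCL9 share 1.88%, with CXCL9 at 0.697% to 5.65% in single treated animals against 16.9% to 51.8% in placebo animals, so the groups did not overlap. At week 15 the CXCL9 share in treated livers had a median of 4.96% and ran from 0.976% to 20.9%, the highest being F1020, and overlapped the placebo range of 11.1% to 47.4%, as the shares also did at weeks 3, 7 and 11. CXCL11 stayed at or under a median of 1.69% in either group at all 8 weeks. At week 23, with dosing over, the median CXCL9 share was 27.9% in animals that had received wIFN-α and 28.9% in placebo animals. These shares are given as a description, with no test.

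CXCR3, the common receptor of these ligands, was at a low level and was called only at the last biopsy on treatment. Its log2 effects at weeks 0, 3 and 7 were 0.00 (SE 0.21), 0.29 (SE 0.23) and 0.33 (SE 0.26), with overlapping ranges each time. At week 11 it was 0.96 (SE 0.40, adjusted p = 0.0673), and it was called when M1012, F1013 or F1022 was left out or when all weeks were fitted together. Without F1020 the week 11 effect was 0.63 (adjusted p = 0.212), and without M1002 it was 0.81 (adjusted p = 0.138). At week 15 placebo livers held 0.377 to 1.53 CPM (median 0.873) and wIFN-α livers 1.03 to 5.99 CPM (median 1.91). Of 8 treated animals, 6 exceeded every placebo animal, F1020 most of all, where 6 of 11 had done so at week -3 before any dose (median 1.29 CPM against a placebo maximum of 1.27 CPM, log2 difference 0.30, SE 0.34), and the effect was 2.60-fold (log2 fold change 1.38, SE 0.35, adjusted p = 0.00415). In bulk liver RNA, more cells of a type and more RNA per cell cannot be told apart.

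CCL5, which attracts T cells and monocytes, was present in all livers and changed little. Week 0 levels were 8.18 to 14.7 CPM (median 11.6) in placebo livers and 11.4 to 17.7 CPM (median 14.9) with wIFN-α, a log2 difference of 0.25 (SE 0.11, adjusted p = 0.0737). The week 11 effect of 0.52 (SE 0.15, adjusted p = 0.0132) was under the 1.5-fold limit. At week 15 the gene was called, at 9.35 to 15.2 CPM (median 11.1) against 11.8 to 36.6 CPM (median 18.3). This was 1.72-fold (0.78, SE 0.18, adjusted p = 0.00175), with 6 of 8 treated animals above the placebo range, F1020 the highest, and it did not reach a limit of 2-fold.

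CXCL16, the ligand of CXCR6, rose from the first dose like CXCL10 but over a smaller range. At week 0 placebo livers held 0.564 to 2.11 CPM (median 1.44) and wIFN-α livers 2.56 to 6.44 CPM (median 4.28), without overlap. The effect was 3.04-fold (log2 fold change 1.60, SE 0.19, adjusted p = 2.59e-07). It was 2.62-fold at week 3, when F1013 alone, at 1.38 CPM, fell inside the placebo range, then 3.57-fold at week 7, 5.30-fold at week 11 and 4.90-fold at week 15. At week 15 treated livers held 3.51 to 9.41 CPM (median 5.30) and placebo livers 0.642 to 1.66 CPM (median 1.24), again without overlap (2.29, SE 0.23, adjusted p = 2.89e-07).

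CXCR6 moved the other way from its ligand at first. At week 0 placebo livers held 0.824 to 4.75 CPM (median 2.30) and wIFN-α livers 0.233 to 2.09 CPM (median 1.11). The ranges overlapped, with 4 of 11 treated animals below every placebo animal, and the effect was called as 2.07-fold lower (log2 fold change -1.05, SE 0.32, adjusted p = 0.0138). The week 3 effect of -0.84 (SE 0.29, adjusted p = 0.0502) just missed the threshold and passed it without F1013 (-0.92, adjusted p = 0.036).

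Week 7 CXCR6 was again called lower, by 2.26-fold (log2 fold change -1.18, SE 0.34, adjusted p = 0.00628), with placebo livers at 0.735 to 3.30 CPM (median 2.0) and wIFN-α livers at 0.355 to 1.68 CPM (median 0.495). The difference was then 0.35 (SE 0.47, adjusted p = 0.595) at week 11, and -0.23 without F1020. At week 15 treated livers held 0.818 to 17.2 CPM (median 2.36) and placebo livers 0.753 to 4.04 CPM (median 1.82). The log2 difference of 1.09 (SE 0.53, adjusted p = 0.107) was not called, and without F1020, which held 17.2 CPM where the next highest treated animal M1003 held 4.41 CPM, it was 0.28 (adjusted p = 0.607).

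**Figure D2:**
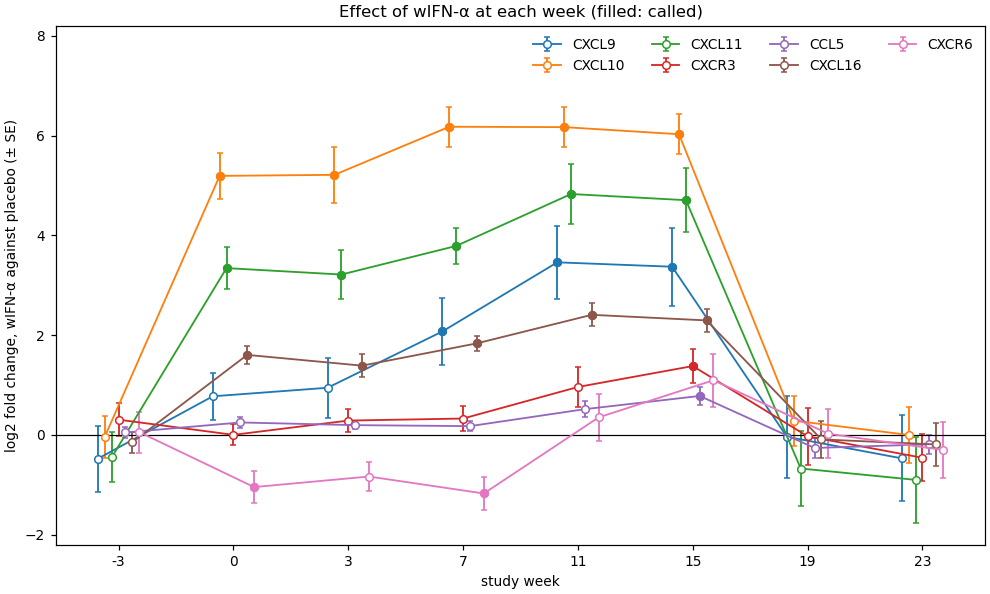
Log2 fold change of wIFN-α against placebo animals (y axis, bars are ± SE) at each of 8 study weeks for the 7 genes, filled points being called. CXCL10, CXCL11 and CXCL16 are called at weeks 0 to 15, CXCL9 from week 7, CXCR3 and CCL5 at week 15, and CXCR6 is called lower at weeks 0 and 7.

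Counted by week, 3 members were called higher and 1 lower at week 0, where 10.3% of all 14700 genes tested were called higher and 8.12% lower. At week 3 these numbers were 3 and 0, against 7.24% and 3.5% of all genes. At week 7, 4 members were higher and 1 lower (11.4% and 10.1% of all genes), at week 11, 4 and 0 (12.5% and 7.97%), and at week 15, 6 and 0 (13.4% and 8.82%). The log2 effects of the 7 members at weeks 0, 7 and 15 had medians of 0.77, 1.83 and 2.29, beside medians over all genes of -0.01, -0.03 and -0.01.

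Late and early induction were compared directly, by subtracting the average effect of weeks 0 and 3 from that of weeks 11 and 15 in a single fit of the weeks on treatment. The early effects came from the 20 μg dose and the late ones from the 100 μg dose, so dose and time on treatment cannot be told apart in this difference. Of the 7 members, 6 were called higher late, where 5.33% of 15900 genes were called higher and 3.7% lower. The difference on the log2 scale was 2.50 (SE 0.67, adjusted p = 0.00893) for CXCL9, 1.61 (SE 0.40, adjusted p = 0.00457) for CXCR6 and 1.46 (SE 0.49, adjusted p = 0.0449) for CXCL11. It was 0.98 (SE 0.30, adjusted p = 0.0261) for CXCR3, 0.80 (SE 0.21, adjusted p = 0.00643) for CXCL16 and 0.37 (SE 0.12, adjusted p = 0.0369) for CCL5. CXCL10 was not called at 0.86 (SE 0.42, adjusted p = 0.19), with a 95% interval of 0.05 to 1.67. CXCR6 differed from the other called members in that its early effect was negative, on average -0.94, and its late effect was 0.72.

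Each of these calls was lost under some other choices of animals, weeks, biopsies or method and held under others. Among 23 alternatives for each gene, the call was lost in 12 for CXCL11, 6 for CCL5, 5 for CXCR3 and 4 for CXCL9. For CXCL16 and CXCR6 it was lost in 2 each. Without F1020, CXCL16 alone was still called (0.77, adjusted p = 0.0228), while CXCL9 (2.07, adjusted p = 0.0574), CXCR6 (1.03, adjusted p = 0.0885), CXCL11 (1.08, adjusted p = 0.202), CXCR3 (0.70, adjusted p = 0.159) and CCL5 (0.25, adjusted p = 0.176) were not. Each of these differences remained positive. Leaving out M1002 left 3 members called, CXCL9, CXCL16 and CXCR6. With all animals kept, 2 were called with week 15 alone as late, 1 with week 3 alone and 3 with week 0 alone as early, 3 without the biopsies over 1% muscle reads and 3 in limma's voom without a block. In voom with the animal as block, CXCL9, CXCR6, CXCL11, CXCR3, CXCL16 and CCL5 were all called.

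**Figure D3:**
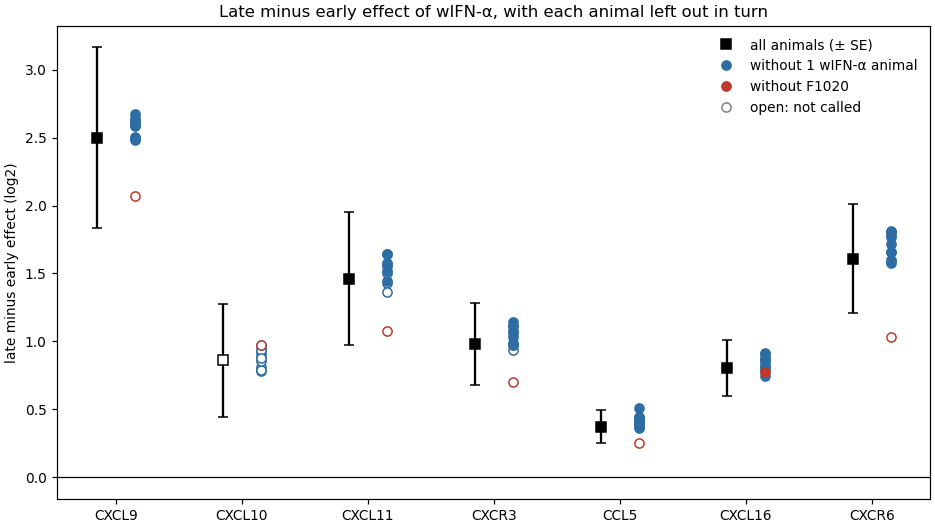
Late minus early effect on the log2 scale (y axis) for each of the 7 genes, with all animals (bars are ± SE) and with each wIFN-α animal left out in turn, F1020 coloured apart. The 6 called differences lie between 0.37 and 2.50, and all 7 remain above 0 without F1020, where CXCL16 alone is called.

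Shorter steps gave less. Between the low-dose average and week 7, where the dose changed, no member was called; 0.302% of all genes were called higher and 0.201% lower. CXCL9 gained 1.18 (SE 0.77, adjusted p = 0.64) and CXCL10 0.96 (SE 0.49, adjusted p = 0.481). Between weeks 7 and 15, at the same dose, no member was called either, with 0.0377% of all genes higher and 0.00629% lower. CXCR6 had the largest difference of the 7 there, 2.24 (SE 0.58, adjusted p = 0.101), with an unadjusted p of 0.000215 in edgeR, and it was called by DESeq2 (adjusted p = 0.0389) and by limma with the animal as block (1.95, adjusted p = 0.0218). CCL5 was also called with that block (0.55, adjusted p = 0.0322). From week 0 to week 3 no member was called, where 2.14% of all genes were higher and 1.77% lower, and CXCL10 differed by 0.02 (SE 0.55, 95% interval -1.07 to 1.10).

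The same animals can be followed from week 7 to week 15. Among the 8 wIFN-α animals with all 5 biopsies on treatment, CXCR3, CXCR6 and CXCL11 were higher at week 15 than at week 7 in 8 of 8, with median ratios of 2.11, 2.97 and 1.62. CXCL9 was higher in 7 of 8 (median ratio 1.98), while CXCL10 was higher in 1 of 8 (median ratio 0.780). F1020 had the largest ratio for CXCL9 (12.5), CXCR3 (11.02) and CXCR6 (13.5). In 9 placebo animals CXCR3 was higher at week 15 in 6 and CXCR6 in 5, with median ratios of 1.23 and 1.02. CXCL9, CXCL10 and CXCL11 were higher in 5, 4 and 3 of these 9, with median ratios of 1.09, 0.978 and 0.756. The highest of the 5 levels fell at week 11 or 15 in 8 of 8 treated animals for CXCL9 and in 3 of 8 for CXCL10, whose highest level fell at week 7 in the remaining 5. In placebo animals it fell at week 11 or 15 in 4 of 9 for CXCL9 and in 4 of 9 for CXCL10.

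**Figure D4:**
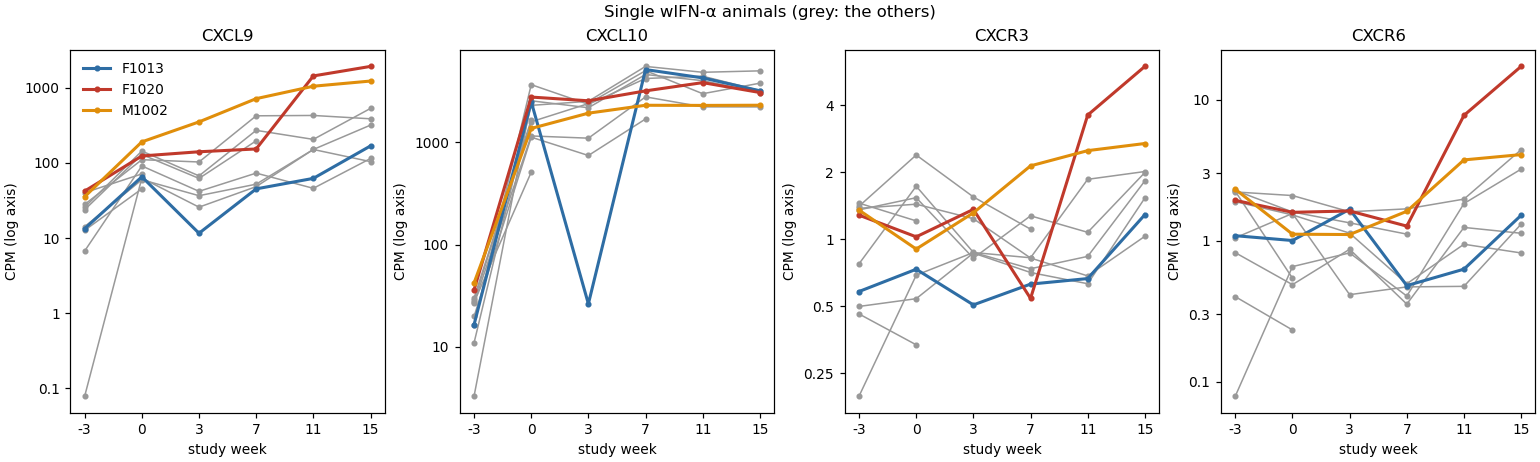
CPM (log axis) of CXCL9, CXCL10, CXCR3 and CXCR6 in single wIFN-α animals at study weeks -3 to 15, with F1013, F1020 and M1002 coloured and the others grey. F1020 reaches the highest week 15 level of CXCL9 (1913 CPM), CXCR3 (5.99 CPM) and CXCR6 (17.2 CPM) but not of CXCL10, and F1013 falls to 26.3 CPM of CXCL10 at week 3.

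Between the 8 treated animals at week 15, 3 relations were computed on log2(CPM + 1). CXCL9 and CXCR3 had a Pearson r of 0.751 (exact permutation p = 0.0193, adjusted 0.0579) and a Spearman rho of 0.643 (exact permutation p = 0.0962, adjusted 0.289). The relation rested on F1020 and M1002, without which r was 0.0737. CXCL10 and CXCR3 had an r of 0.0241 (exact permutation p = 0.954) and CXCL9 and CXCL10 an r of -0.486 (exact permutation p = 0.221).

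Sexes were compared by the interaction of agent and sex at each week on treatment; the test at week 15 was part of the design and those at the other weeks were added. No gene was called at any of the 5 weeks by edgeR, with 371, 488, 1467, 854 and 715 genes at an unadjusted p under 0.05 at weeks 0, 3, 7, 11 and 15. CXCL9 at week 7 had the largest sex difference of the members. The 4 treated males held 196 to 713 CPM (median 346) and the 5 treated females 45.0 to 153 CPM (median 52.0), without overlap, whereas placebo males held 4.24 to 38.6 CPM and placebo females 9.69 to 199 CPM. The effect was 18.1-fold in males and 0.902-fold in females, and the female minus male difference was -4.33 on the log2 scale (SE 1.04, adjusted p = 0.326). That difference was also negative, and not called, at weeks 0 (-2.03, SE 0.89), 3 (-2.58, SE 1.15), 11 (-1.46, SE 1.44) and 15 (-1.39, SE 1.54). At week 0 the male CXCL9 effect was 3.74-fold (adjusted p = 0.0479) and the female effect 0.915-fold (adjusted p = 0.919). At week 11 CXCL9 was called higher in both sexes, at 20.6-fold in males and 7.52-fold in females. The week 15 effects were 18.7-fold in males, which was called, and 7.17-fold in females (adjusted p = 0.0537). CXCR6 was called lower in females alone, at weeks 0 (-1.54) and 7 (-1.92). Male CXCR6 effects were -0.53 and -0.47, and the sex difference was not called at either week.

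After dosing ended, no member was called. CXCL10 at week 19 stood at 30.4 to 93.2 CPM (median 58.3) in the 6 animals that had received wIFN-α and at 15.5, 26.3, 26.8, 47.9 and 128 CPM in the 5 placebo animals, with overlap (log2 difference 0.28, SE 0.50). CXCL9 was at 11.3 to 96.2 CPM (median 54.5) against 6.14 to 138 CPM (median 18.2). At week 23 the log2 differences of the 7 members ran from -0.90 for CXCL11 to -0.00 for CXCL10. The CXCL11 placebo group included M1008 at 16.8 CPM. Its medians ran the other way, at 1.11 CPM after wIFN-α and 0.773 CPM with placebo. edgeR called 0% of all genes at weeks -3, 19 and 23, where 128, 1846 and 2401 genes had an unadjusted p under 0.05 and DESeq2 called 0, 89 and 53. F1020 and M1002 had no biopsy in the treated groups of weeks 19 and 23.

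Other chemokine genes are given from lists written by function. At week 15, 13.4% of all genes were called higher and 8.82% lower. Of 30 other chemokine ligands tested at week 15, 18 were called higher and 2 lower (median 1.28), among them CCL7 (4.05, SE 0.68, adjusted p = 1.19e-04) and CCL8 (3.80, SE 0.61, adjusted p = 7.81e-05), which attract monocytes. CCL15 (3.12) and CCL23 (3.15), closely related paralogs whose reads may have been split between them, had the next largest effects. In the late minus early difference, 3 of 32 ligands were higher and 2 lower (median 0.33), beside 5.33% and 3.7% of all genes. Of 16 other chemokine receptors at week 15, 4 were higher and 1 lower (median 0.55). CCBP2, a decoy receptor that takes up CC chemokines, was 2.47-fold lower at week 15. Among 3 genes whose products cleave these chemokines, DPP4, which trims the CXCR3 ligands, was higher at week 15 (0.82, SE 0.21, adjusted p = 0.00408), while of the sheddases of CXCL16, ADAM10 differed by 0.09 and ADAM17 by 0.56 (adjusted p = 6.37e-05), under the 1.5-fold limit.

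Genes of the interferon-γ axis were called higher in 6 and lower in 3 of 13 at week 15 (median 0.46), against 5 and 1 at week 0. Of all genes, 13.4% were higher and 8.82% lower at week 15, and 10.3% and 8.12% at week 0. IFNG itself, the gene of interferon-γ, was at 0 in 21 of the 149 biopsies and was tested only in the fit of the weeks on treatment, where its late minus early difference was 3.01 (SE 0.68, adjusted p = 0.00151). TBX21, the transcription factor that drives interferon-γ and CXCR3 expression in T cells, differed by 0.92 between late and early (SE 0.29, adjusted p = 0.0296). Of the 15 genes, 5 were called higher late and 0 lower (median 0.29), beside 5.33% and 3.7% of all genes. Whether these late minus early differences depended on F1020 was not tested.

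T cell marker genes, taken from the list of 12, were called more often at week 15 than at week 0. The shares of all genes called higher and lower were 13.4% and 8.82% at week 15, and 10.3% and 8.12% at week 0. At week 0, 1 of 12 was called higher (CD3E, 1.88-fold), and at week 15, 10 of 12 with a median of 1.14. CD2 had a week 15 effect of 1.87 (SE 0.47, adjusted p = 0.00422), CD6 1.61, ZAP70 1.36 and CD8A 0.86 (SE 0.24, adjusted p = 0.00869). The summed level of the 12 genes at week 15 was 51.6 to 105 CPM (median 85.0) in placebo livers. Treated livers held 129 to 295 CPM (median 148), without overlap. At week 0 placebo livers held 77.0 to 148 CPM (median 88.4) and treated livers 57.1 to 163 CPM (median 127). The treated median was thus above the placebo median from week 0. At week 3 these medians were 122 and 93.4 CPM. At week 7 treated livers held 106 to 156 CPM (median 127) and placebo livers 59.3 to 107 CPM (median 86.4). In the late minus early difference 10 of 12 were higher (median 0.94), beside 5.33% of all genes. Genes of these lists, unlike the members, were compared with the full set of animals only. Their dependence on F1020 was not tested. Of 5 NK cell genes tested, 4 were higher at week 15 (median 1.24) and 1 late against early. Of the other marker lists at week 15, 3 of 6 B and plasma cell genes, 3 of 9 macrophage genes (1 lower), 1 of 8 hepatocyte genes and 1 of 6 endothelial genes were higher, and 0 of 20 skeletal muscle genes were called. The part of cell numbers in the member effects was not tested.

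Over all 149 biopsies, the genes whose log2(CPM + 1) pattern was most like that of each member differed between members. For CXCL10 they were GBP1 (Pearson r = 0.983), RABEPK and GBP3, and for CXCL16 SAMHD1 (0.920), GBP1 and NUP214. For CXCL9 they were B2M (0.876), HLA-C and HLA-E, whose products form MHC class I molecules. Those given for CXCL11 were ANKDD1A (0.934) and PLAC8 (0.934). CXCR3 was closest to ARHGAP30 (0.886), ZAP70 and CD6, CXCR6 to PTPN22 (0.870), CD27 and CD74, and CCL5 to NAGK (0.736), CD37 and ICOS. With the mean of each agent and week taken off, CXCL9 was closest to HLA-C (0.830), CXCR3 to ARHGAP30 (0.871) and CXCR6 to PTPN22 (0.889). The biopsies share animals, treatment weeks and library depth, so these values are descriptions over 13918 genes.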

How the data were processed

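Poly(A) RNA of woodchuck liver biopsies was sequenced as paired-end reads of 50 nucleotides. The authors mapped them with Bowtie2 to their own transcriptome assembly and counted reads with SAMtools, and versions are not given in the sources used here. The deposited expected counts are unnormalized reads per gene, with 118 fractional values among 3368022. The deposited RPKM values, scaled by the authors for gene length and library size, gave only the gene lengths behind the per-length levels. Genes not listed in a run were taken as 0, and the entry for WHV counted neither in library sizes nor in tests.

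Runs (203) were summed to 164 biopsies and rounded. Of these, 149 were used, 7 belonged to M1004, which the study set aside as probably clearing its infection, and 8 were of other times. No column was without its sample. Depth was 12072840 to 84805845 reads per biopsy.

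Counts were tested with edgeR 4.0.16 in R 4.3.3 (TMM, filterByExpr, robust quasi-likelihood, Benjamini-Hochberg over all genes), 1 fit per week, and contrasts in a fit of weeks 0 to 15. Genes were called at an adjusted p of 0.05 and, per week, a fold of 1.5. SE were derived from each effect and its F value. Alternatives used DESeq2 1.42.0, limma 3.58.1, RLE scaling, no filter, the deepest run, M1004 included, sex as covariate, a fold of 2, other early or late weeks and single animals left out. Other steps used Python 3.11.15, numpy 2.4.6, pandas 2.3.3, scipy 1.17.1 and matplotlib 3.10.9. The fits were tested on simulated data.

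Samples of an animal share its number in the labels. Deviations from group means correlated with a median of 0.393 within animals (17 pairs, 13 above 0.1) and -0.0379 between animals (163 pairs).

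The members and gene lists were chosen with earlier results of these data known. Named genes were all members, up to 4 per list with the largest called change at week 15 or late against early, cell type markers, and the 3 genes most like each member (mean level 1 CPM or more). Some genes that this rule names are not reported here. ADAM10 and ADAM17 were added for their role after their values were seen. Treatment response groups were not used here. Symbols follow the files, and all 7 members match RefSeq symbols of the woodchuck assembly Marmota_monax_Labrador192_F-V1.1.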

Additional observations from a re-analysis of the deposited data

Results flagged for a closer look

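In single groups of 4 to 10 animals, 5 of 70 groups of member levels held an animal far from the others by Dixon's test, where chance gives about 1 in 20. F1013 at week 3 held 26.3 CPM of CXCL10, below all other wIFN-α animals of that week. F1020 at week 15 held 36.6 CPM of CCL5 and 17.2 CPM of CXCR6, above all other wIFN-α animals. Placebo animal M1008 held 8.70 CPM of CXCL11 at week 19 and 16.8 CPM at week 23, above all other placebo animals.

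The late minus early difference, tested in edgeR with the animals of each week taken as independent, passed the threshold for CXCL9 (2.50), CXCR6 (1.61), CXCL11 (1.46), CXCR3 (0.98), CXCL16 (0.80) and CCL5 (0.37).

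M1004, the wIFN-α animal left out of the tests, exceeded every placebo animal of the same week in 6 of its 7 biopsies for CXCL10, in 5 for CXCL11, CCL5 and CXCL16, in 3 for CXCL9 and CXCR6 and in 2 for CXCR3.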

How the results depend on the processing

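On treatment, the calls of single members at single weeks held in 446 alternative values and were lost in 2. CXCL9 at week 7 was lost without M1002, and CCL5 at week 15 at a fold above 2. A CXCR6 call lower at week 3 appeared with the deepest run, without F1013 and in DESeq2 (1 member each). Leaving out single animals gave 3 to 4 members higher at week 7, 4 to 5 at week 11 and 0 to 1 lower at week 3. With a fold above 2, 1268, 780, 1467, 1531 and 1707 genes were called at weeks 0, 3, 7, 11 and 15, in place of 2715, 1612, 3197, 3070 and 3325. At weeks 19 and 23 edgeR called 0 genes and DESeq2 89 and 53, and fitting all weeks together gave 9 at week -3 and 242 at week 23; leaving out single animals gave 0 to 1 at week 19.

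Late minus early, 6 members and 1435 genes were called. Week 15 alone as late gave 2 members and 625 genes, week 3 alone as early 1 and 689, and week 0 alone as early 3 members. The biopsies over 1% muscle reads left out gave 3 members and 826 genes, and single animals left out 1 to 6 members and 829 to 1708 genes (1 member and 829 genes without F1020, 3 and 839 without M1002). CXCL11 was also lost without M1006, M1007 or F1022, and, by alternatives chosen after seeing the data, without F1013's week 3 biopsy (adjusted p = 0.0561) and with only animals that had all 5 biopsies (adjusted p = 0.0748). With limma's voom, 3 members were called without a replicate block and 6 with the animal as block (correlation within animals 0.354), and the block raised the genes called to 3155. Week 7 minus low dose (80 genes) gave 25 without muscle-rich biopsies, 187 in DESeq2, 558 with the animal block and 51 to 132 without single animals. Week 15 minus week 7 (7 genes) gave 3 without a filter, 30 without muscle-rich biopsies, 0 with only complete animals, 49 in DESeq2 with 1 member, 2 in voom without the block, 216 with it (2 members), and 0 to 54 without single animals. Week 3 minus week 0 (621 genes) gave 0 without muscle-rich biopsies, 359 without F1013's week 3 biopsy, 97 with only complete animals, 113 in voom, 1022 with the animal block, and 327 to 1080 without single animals. The block changed no other member call.

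Directions turned only where the effect was not called. CXCR3 at week 0 was -0.0010 with RLE, -0.031 with the deepest run, -0.032 with sex, -0.019 with M1004 and -0.0092 in a fit of all weeks, and -0.17 to 0.10 without single animals. CXCR6 at week 11 was -0.23 to 0.50 without single animals. At week -3 CXCL10 was 0.10 with M1004 and CXCR6 -0.040 with sex. At week 19 CXCL9 was 0.029 and CXCR3 0.10 with M1004, CXCR3 0.021 with the deepest run, and CXCL10 -0.12 and CXCR6 -0.35 without muscle-rich biopsies. Without single animals week 19 gave -0.33 to 0.73 for CXCL9, -0.97 to 0.88 for CXCL11, -0.29 to 0.72 for CXCR3, -0.28 to 0.14 for CXCL16 and -0.19 to 0.55 for CXCR6. CXCL10 at week 23 was 0.0026 with RLE, 0.0076 without a filter, 0.029 with the deepest run, 0.16 with sex, 0.0094 in a fit of all weeks and 0.0041 in DESeq2, which gave CXCL11 0.56. CXCR3 from the low dose to week 7 was -0.052 without muscle-rich biopsies and -0.028 to 0.28 without single animals. From week 0 to 3, CXCL9 was -0.44 in voom, -0.47 with the block and -0.31 to 0.28 without single animals, CXCL10 -0.58, -0.64 and -0.084 to 0.23, and -0.042 with only complete animals, and CXCL11 0.20 without muscle-rich biopsies, 0.025 without F1013's week 3 biopsy and -0.26 to 0.0036 without single animals. The cause was not tested. Placebo animals were left out singly only at weeks 15 and 19. CXCR3, CXCR6, CXCL11 and CXCL16 rest on few reads in the median biopsy (27 to 46), which limits their precision.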

Other observations

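Biopsies taken at other times belong to no comparison. F1020 at death held 276 CPM of CXCL9, 16.3 CPM of CXCL10 and 7.72 CPM of CXCR6. M1007 at death held 278 CPM of CXCL9 and 1726 CPM of CXCL10, and F1023 at death 1.13 CPM of CXCL9 and 300 CPM of CXCL10. M1006, at label week 3, held 1062 CPM of CXCL10, and M1002, at label week 26, 223 CPM of CXCL9 and 82.9 CPM of CXCL10. Placebo animals M1010 and F1017 at label week 18 held 23.8 and 209 CPM of CXCL9, and F1024, found dead, 17.5 CPM.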
